A study of Mus musculus with 9 samples.

Results

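Complement is the blood-borne cascade that marks targets for uptake and pierces membranes, and the liver makes most of its soluble proteins. The genes described here are C3, C4b, Hc, C6, C8a, C8b, C9 and Cfb, which encode complement components, and Clu, which encodes clusterin, a secreted chaperone that binds the assembling terminal complex. These are 9 of the 52176 gene symbols named in the tables of 9 tumors, taken by symbol, and they were chosen with the group values of these same tumors known. Their levels and group differences are therefore given as a description, with no test.

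The tumors were grown in the livers of male C57BL/6 mice aged 6 to 8 weeks, from implanted pieces of subcutaneous tumors of Hepa1-6, a mouse hepatoma cell line, and each tumor was from 1 mouse. The PBS tumors (n = 3) were from mice injected with PBS only. The anti-PD-1 antibody-nonresponsive tumors (n = 3) and anti-PD-1 antibody-responsive tumors (n = 3) were from mice injected with antibody to PD-1, an inhibitory receptor of T cells. Injections were intraperitoneal, 5 in all at intervals of 4 days, the first on day 10 and the last on day 26. Tumors were taken on day 27 and freed of the tissue around them. The nonresponsive tumors were the largest and the responsive tumors the smallest of the antibody-treated ones, with intermediate tumors excluded, so response and tumor size at collection cannot be told apart.

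The cascade can be started in 3 ways. The classical route, begun by antibody-bound C1, and the lectin route, begun by sugar-binding lectins, both lead to cleavage of C4 and C2. The alternative route uses factor B, the product of Cfb. All of them meet at C3, whose cleavage leads to cleavage of C5, the product of Hc, and then C6, C7, C8 and C9 assemble into the membrane attack complex. C8 has an alpha, a beta and a gamma chain, encoded by C8a, C8b and C8g.

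RefSeq gives the DNA before the start of 6 of the 9 genes in mouse build GRCm38.p6. C4b, Cfb and Clu had no match. The bases from 250 to 31 before the start are given for 4 of the genes, the 3 that hold the letters GTTAAT, which the liver factor HNF1 is known to bind, and C3, whose window holds letters of the C/EBP family. Each is written 5′ to 3′ on the strand of its gene, and capitals mark the letters found.
Hc (chr2:35061443-35061662, minus strand): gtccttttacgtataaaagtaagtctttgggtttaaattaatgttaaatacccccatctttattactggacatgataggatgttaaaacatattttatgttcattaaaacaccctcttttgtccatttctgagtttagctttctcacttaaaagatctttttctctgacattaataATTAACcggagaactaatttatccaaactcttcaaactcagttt
C8b (chr4:104766067-104766286, plus strand): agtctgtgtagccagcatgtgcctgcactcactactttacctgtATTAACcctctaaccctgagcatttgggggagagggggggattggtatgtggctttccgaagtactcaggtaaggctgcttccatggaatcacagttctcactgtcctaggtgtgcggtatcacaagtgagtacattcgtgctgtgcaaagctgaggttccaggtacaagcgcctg
C8a (chr4:104876429-104876648, minus strand): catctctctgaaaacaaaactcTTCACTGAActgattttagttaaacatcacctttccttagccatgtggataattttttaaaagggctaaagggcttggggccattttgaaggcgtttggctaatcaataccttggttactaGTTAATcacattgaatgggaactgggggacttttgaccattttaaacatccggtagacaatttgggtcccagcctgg
C3 (chr17:57228167-57228386, minus strand): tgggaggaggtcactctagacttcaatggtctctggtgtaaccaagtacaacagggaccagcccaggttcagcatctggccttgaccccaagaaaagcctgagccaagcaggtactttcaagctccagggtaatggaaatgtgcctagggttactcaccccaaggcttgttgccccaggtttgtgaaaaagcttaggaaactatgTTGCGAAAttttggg

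Both strands were searched over the same stretch of 220 bases, and no matches of different motifs overlapped. GTTAAT was found in Hc, as ATTAAC from 74 to 69 bases before the start, in C8b, as ATTAAC from 206 to 201, and in C8a, from 107 to 102, and in 5.82% of all 32851 windows. TTGCNNAA, letters of the C/EBP family, was found in C3 from 45 to 38 bases before the start and in C9 from 132 to 125, and in 8.78% of all windows. TTCNNNGAA, letters of STAT factors, was found in C8a from 228 to 220 and in 6.27% of all windows. CAAAGTC, letters of HNF4, was found in none of these 6 windows and in 3.41% of all. A match describes letters only, since binding was not measured in these tumors.

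Levels are in FPKM, fragment counts divided by the length of the transcript and the size of the library, which allows genes of different length to be compared. Each of the 9 genes had 1 row per tumor. The C4b row was shared with C4a, and the Cfb row with C2 and Gm20547, in every tumor, so these values are of the joined rows and cannot be divided between the genes. The tables used here hold no fragment totals, so depth is unknown. The interval that Cufflinks gave reached from 2.77% to 36.8% of the FPKM on either side of it, with a median of 4.98%, and passed 10% in 11 of 81 values.

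C3, the component on which all routes meet, was the most abundant of the 9 genes in 6 of 9 tumors. Its FPKM was 92.5, 601 and 603 in PBS tumors 1, 2 and 3, then 1086, 833 and 548 in nonresponsive tumors and 1679, 670 and 1180 in responsive tumors. PBS tumor 1 was far below all others, and responsive tumor 2 fell between the nonresponsive values. The means were 432 ± 294 (SD, n = 3) in PBS, 822 ± 269 in nonresponsive and 1176 ± 504 in responsive tumors. Cfb, which supplies the protease of the alternative C3 convertase, had an FPKM of 115, 241 and 312 for PBS, 424, 262 and 340 for nonresponsive, and 504, 410 and 458 for responsive tumors. The responsive values lay above all PBS values, and the lowest of them, 410, lay below the highest nonresponsive value. Group means of Cfb were 223 ± 100, 342 ± 81.2 and 457 ± 47.0 (SD, n = 3).

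C4b encodes C4, which the classical and lectin routes cleave. The joined row had an FPKM of 132, 217 and 152 for PBS, 142, 191 and 197 for nonresponsive, and 233, 291 and 245 for responsive tumors. All responsive tumors were above the other 6, which overlapped with one another. It varied least of the 9 genes, with means of 167 ± 44.5, 177 ± 29.8 and 256 ± 30.6 (SD, n = 3) and a highest value 2.19 times the lowest. C4b also reached its highest value in responsive tumor 2, whereas the other 8 genes reached theirs in responsive tumor 1.

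The terminal components were less abundant and varied more. Hc had an FPKM of 3.71, 22.1 and 29.0 for PBS, 56.8, 22.5 and 22.4 for nonresponsive, and 94.0, 56.1 and 54.1 for responsive tumors. Nonresponsive tumor 1 was above the lower 2 responsive tumors, and the other 2 nonresponsive tumors were within the PBS range. The Hc means were 18.3 ± 13.1, 33.9 ± 19.8 and 68.1 ± 22.5 (SD, n = 3).

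C6, the first protein to join C5b, had an FPKM of 1.61, 10.2 and 16.0 for PBS, 45.3, 16.5 and 12.8 for nonresponsive, and 69.9, 18.1 and 34.6 for responsive tumors. Responsive tumor 2 was close to the lower nonresponsive tumors here, and the group means were 9.26 ± 7.23, 24.9 ± 17.8 and 40.9 ± 26.5 (SD, n = 3). C8a, the C8 chain that enters the membrane, had an FPKM of 2.22, 16.1 and 28.6 for PBS, 61.5, 24.7 and 21.2 for nonresponsive, and 113, 49.8 and 79.6 for responsive tumors. Only nonresponsive tumor 1 reached into the responsive range.

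C8b, the chain that attaches C8 to the complex, had an FPKM of 1.69, 10.3 and 15.6 for PBS, 47.8, 14.2 and 14.1 for nonresponsive, and 78.3, 34.7 and 51.2 for responsive tumors, which is the same order of overlap as for C8a. C9, which forms the ring of the pore, had an FPKM of 2.26, 22.2 and 38.9 for PBS, 92.4, 39.0 and 29.5 for nonresponsive, and 148, 55.3 and 88.5 for responsive tumors. C9 had the widest range, its highest value being 65.8 times its lowest, followed by 50.7 times for C8a, 46.4 times for C8b and 43.4 times for C6. Hc spanned 25.3 times, C3 18.2 times, Cfb 4.40 times and Clu 3.45 times.

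Clu differed from the terminal components in its level and in where the groups fell. Its FPKM was 270, 446 and 610 for PBS, 624, 365 and 371 for nonresponsive, and 932, 675 and 836 for responsive tumors. All responsive tumors were above the other 6, and PBS and nonresponsive tumors covered nearly the same range, with means of 442 ± 170 and 453 ± 148 against 814 ± 130 (SD, n = 3) in responsive tumors.

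**Figure D1:**
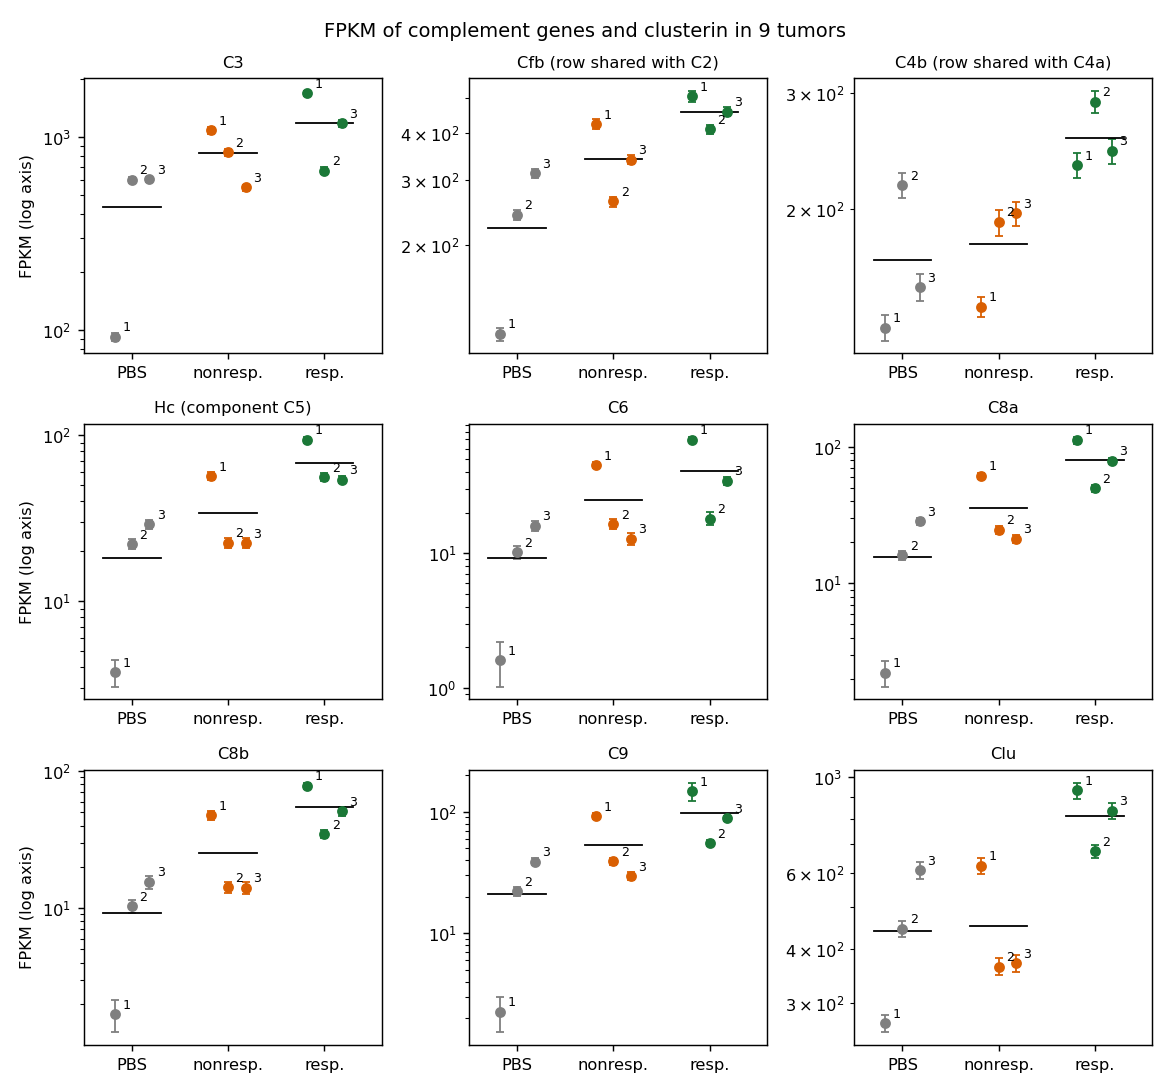
FPKM of the 9 genes on a log axis that differs between panels, in PBS, nonresponsive and responsive tumors (n = 3 each, numbered by replicate). Bars on points are the intervals Cufflinks gave and horizontal lines are group means. PBS tumor 1 is lowest in all 9 panels.

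PBS tumor 1 was the lowest tumor for 9 of 9 genes, and differences from PBS tumors that move by more than 1.5 times without it are given both ways. It was also the tumor with the largest share of its summed FPKM in rows that name no gene, 81.5%, against 19.2% to 73.2% in the other 8. These rows are not used here, and their part in the results was not tested.

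In responsive against nonresponsive tumors, the mean of log2(FPKM + 1) was higher for 9 of 9 genes, and the groups did not overlap for 2, C4b and Clu. Genes entered the comparison where 3 or more of its 6 tumors had an FPKM of 1 or higher. Over all 13845 such genes 5.78% were higher without overlap, a background from which nothing is read for genes chosen on this contrast. All 9 genes passed that filter in each of the 3 comparisons. The differences, in log2(FPKM + 1) with the standard error (SE) of a limma fit, were 1.24 (SE 0.50) for C8a, 1.24 (SE 0.56) for C8b and 1.08 (SE 0.44) for Hc. They were 0.91 (SE 0.55) for C9, 0.88 (SE 0.32) for Clu, 0.70 (SE 0.65) for C6, 0.54 (SE 0.23) for C4b, 0.47 (SE 0.46) for C3 and 0.44 (SE 0.27) for Cfb. The median of the 9 differences was 0.88, where the median over all genes tested was -0.066. The number of genes without overlap depended on single tumors, since it was 8 without nonresponsive tumor 1 and 6 without responsive tumor 2. Leaving out a tumor can only keep or raise this number. The 5.78% holds for 3 tumors against 3 only, so nothing is read from the rise. The size of 4 differences depended on single tumors as well. C6 was at 0.22 without responsive tumor 1 and 0.35 without nonresponsive tumor 3, and at 1.17 without responsive tumor 2 and 1.22 without nonresponsive tumor 1. C3 was at 0.17, 0.21 and 0.83 without responsive tumor 1, nonresponsive tumor 3 and responsive tumor 2. C9 was at 0.55, 0.57 and 1.38 without responsive tumor 1, nonresponsive tumor 3 and nonresponsive tumor 1, and Cfb was at 0.26 without nonresponsive tumor 2.

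In responsive against PBS tumors, the groups did not overlap for 9 of 9 genes, and 11.6% of 13852 genes were higher without overlap. This contrast too was known when the genes were chosen. The differences in log2(FPKM + 1) were 2.73 (SE 0.74) for C8b, 2.72 (SE 0.86) for C8a, 2.65 (SE 0.99) for C9, 2.20 (SE 0.84) for C6 and 2.17 (SE 0.74) for Hc. They were smaller for C3 at 1.76 (SE 0.84), Cfb at 1.15 (SE 0.41), Clu at 0.94 (SE 0.37) and C4b at 0.64 (SE 0.25). Leaving out PBS tumor 1 could not make the groups overlap, while the median difference was 1.35 in place of 2.17. Without it C8b differed by 1.95, C8a by 1.78, C9 by 1.58, C6 by 1.40 and Hc by 1.35. C3 then differed by 0.87, Cfb by 0.73, Clu by 0.63 and C4b by 0.48.

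In nonresponsive against PBS tumors, the mean was higher for 9 of 9 genes and the groups overlapped for all 9, with 3.23% of 13806 genes higher without overlap. The differences in log2(FPKM + 1) were 1.75 (SE 1.01) for C9, 1.50 (SE 0.83) for C6, 1.49 (SE 0.83) for C8b, 1.48 (SE 0.90) for C8a, 1.29 (SE 0.81) for C3, 1.09 (SE 0.80) for Hc and 0.71 (SE 0.43) for Cfb. Clu and C4b were at 0.07 (SE 0.40) and 0.09 (SE 0.27). Without PBS tumor 1 the median was 0.39 in place of 1.29, the 7 other genes were between 0.27 and 0.71, and Clu and C4b were at -0.25 and -0.06. Without nonresponsive tumor 1, Clu was at -0.19, and Hc, C8b and C6 at 0.66, 0.93 and 0.98. The number of genes higher without overlap was 6 without PBS tumor 3, 3 without nonresponsive tumor 3 and 1 without nonresponsive tumor 2. This number too can only stay or rise when a tumor is left out, and the 3.23% does not apply to it. Each group of tumors enters 2 of the 3 comparisons, which are therefore not independent of one another.

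**Figure D2:**
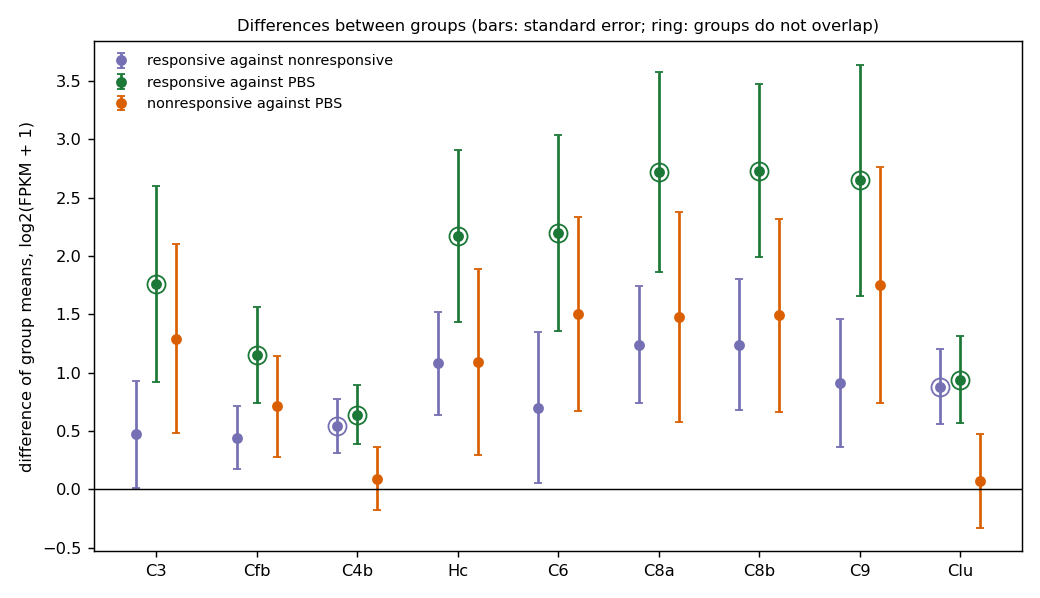
Differences of group means in log2(FPKM + 1) for the 9 genes, with bars of 1 SE (3 tumors against 3) and a ring where the groups did not overlap. Rings mark 9 genes in responsive against PBS, C4b and Clu in responsive against nonresponsive, and none in nonresponsive against PBS tumors.

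The proportions between the genes within a tumor show which of them kept step. The FPKM of C8a was 1.29 to 1.83 times that of C8b in all 9 tumors. C9 was 1.01 to 1.58 times C8a, C9 was 1.40 to 3.06 times C6, and Hc was 1.25 to 3.10 times C6. The early components and clusterin did not keep these proportions with the terminal genes. Clu was 120 times C9 in PBS tumor 1 and 6.28 to 20.1 times C9 in the other 8 tumors. C3 was 15.5 to 41.0 times C9 in PBS tumors, 11.8 to 21.3 times in nonresponsive tumors and 11.3 to 13.3 times in responsive tumors. The 41.0 was in PBS tumor 1, and the highest ratio of C3 to C9 in the other 8 tumors was 27.1, in PBS tumor 2.

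The order of the levels was steady. C3 or Clu was first and Cfb and C4b were the 3rd and 4th of the 9 genes in all tumors except PBS tumor 1, where the order was Clu, C4b, Cfb, C3. C6 or C8b was last in every tumor. Neighbours in this order often did not differ beyond the spread between tumors: Clu exceeded C3 in PBS tumors 1 and 3 and responsive tumor 2, and C8a and Hc changed places between tumors.

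The levels were also set beside the hepatocyte markers of the tumor. A list of 20 genes of mature hepatocytes, such as Alb for albumin, was measured in full and none was at 0. Its summed FPKM was 928 to 7216 for PBS, 4598 to 16294 for nonresponsive, and 13279 to 27588 for responsive tumors. The mean of its log2(FPKM + 1) was 3.88 to 6.90, 6.26 to 8.05 and 7.87 to 9.04, so that responsive tumors were apart from PBS tumors and overlapped with nonresponsive ones. The hepatocyte mean differed by 1.27 between responsive and nonresponsive, 2.64 between responsive and PBS, and 1.36 between nonresponsive and PBS tumors. Without PBS tumor 1 the last 2 of these were 1.70 and 0.42, and the first was 0.84 without nonresponsive tumor 3. The most abundant genes of the list moved alike: Alb had an FPKM of 173, 835 and 1259 for PBS, 2678, 1490 and 885 for nonresponsive, and 5041, 2576 and 4396 for responsive tumors, and Trf and Apoa2, for transferrin and an apolipoprotein, were likewise lowest in PBS tumor 1 and highest in responsive tumor 1, at 258 and 4756 and at 89.2 and 5326. Of the 20 genes, 19 had a higher mean in responsive than nonresponsive tumors. Arg1 was the exception, at 676, 414 and 162 FPKM in nonresponsive and 407, 150 and 177 in responsive tumors. These are bulk tumors, in which fewer cells of a type and less RNA per cell cannot be told apart.

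Subtracting the hepatocyte mean of the same tumor narrowed the spread of 6 of the 9 genes over the 9 tumors and widened that of C4b, Cfb and Clu. The SD over the 9 tumors, in log2(FPKM + 1), went from 1.53 to 0.20 for C8a, from 1.60 to 0.27 for C9, from 1.48 to 0.27 for C8b, from 1.26 to 0.33 for Hc, from 1.37 to 0.37 for C6 and from 1.18 to 0.49 for C3. It went from 0.38 to 1.32 for C4b, from 0.65 to 0.91 for Cfb and from 0.60 to 1.00 for Clu. Relative to the hepatocyte mean, the responsive mean was below the nonresponsive mean for 9 of 9 genes, the differences being -0.03 for C8b, -0.04 for C8a, -0.80 for C3 and -0.84 for Cfb on the log2 scale. The relative groups did not overlap for C3 and C9. Against PBS tumors the relative responsive values of 5 genes, C3, C4b, Hc, Cfb and Clu, were lower without overlap, while those of C8a, C8b and C9 differed by 0.08, 0.09 and 0.02 and overlapped. Without PBS tumor 1 the spread narrowed for the same 6 genes. The same 5 stayed lower without overlap, as they must when a tumor is left out. The relative difference of C8b was then 0.25, without overlap, and those of C8a and C9 were 0.09 and -0.12. The hepatocyte mean was itself 2.64 higher in responsive than PBS tumors, so any gene that differed by less has a lower relative mean. No share over all genes is given on this relative scale, so nothing is read from these counts. These are descriptions of the same tumors, and the part of hepatocyte content in the differences was not tested.

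**Figure D3:**
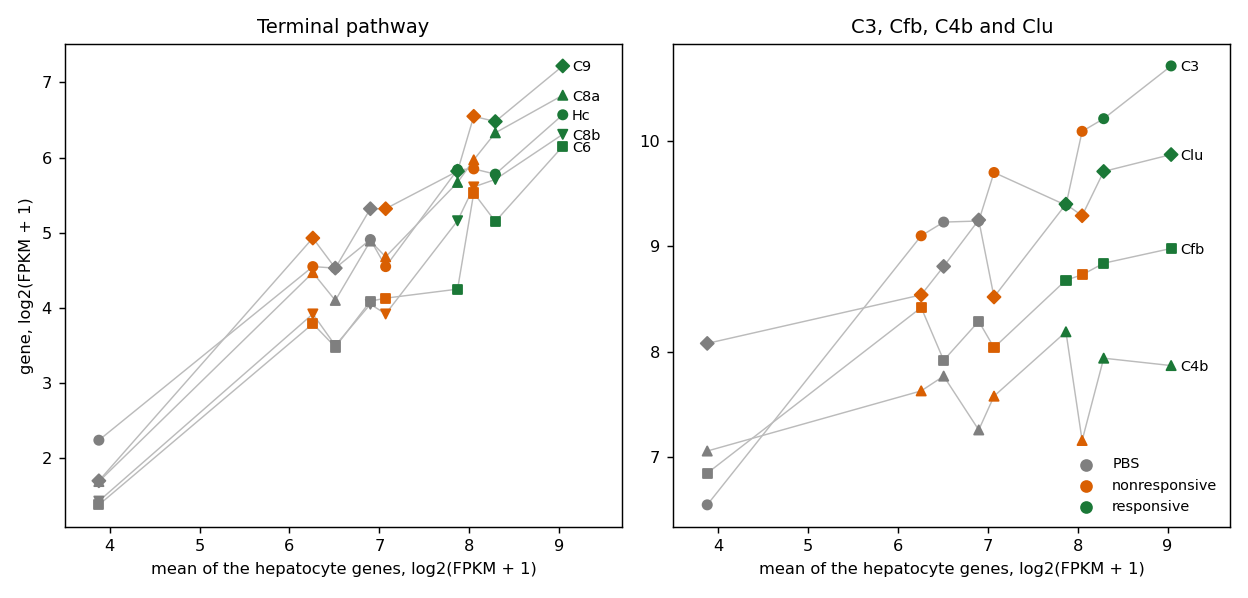
Level of each gene against the mean of 20 hepatocyte genes in the same tumor, both in log2(FPKM + 1), with 1 point per tumor colored by group and lines joining the 9 tumors of a gene. The terminal components in the left panel rise with the hepatocyte mean, whereas C4b in the right panel stays within 1.13.

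Lists of other cells that such a tumor could hold are given by the range of their mean log2(FPKM + 1) in PBS, nonresponsive and responsive tumors. Macrophage genes were at 4.90 to 6.26, 5.93 to 7.12 and 5.54 to 6.87, and Kupffer cell genes at 0.88 to 4.17, 3.96 to 4.82 and 4.18 to 5.42. T cell genes were at 2.99 to 4.62, 3.83 to 4.04 and 4.06 to 4.71, and neutrophil genes at 4.05 to 7.13, 5.44 to 8.02 and 5.03 to 7.41. Fibroblast and stellate cell genes were at 7.44 to 8.54, 7.91 to 8.92 and 7.76 to 8.31, endothelial genes at 3.24 to 4.11, 3.51 to 4.52 and 3.60 to 4.29, and cholangiocyte genes at 4.17 to 4.63, 1.59 to 4.18 and 2.56 to 4.93. Genes of fetal liver and hepatoma, Afp among them, were at 2.65 to 3.16, 2.50 to 4.13 and 1.77 to 3.13. Of the 8 lists, Kupffer cell and T cell genes were the ones whose responsive range began above the PBS or the nonresponsive range. The margins were small, 4.18 against 4.17 in PBS tumors for Kupffer cell genes and 4.06 against 4.04 in nonresponsive tumors for T cell genes. Nothing is read from them. Pancreatic acinar genes summed to an FPKM of 841 in nonresponsive tumor 2 and to 11.1 to 18.1 in the other 8, with Pnlip and Ctrb1 at 0 in all PBS and responsive tumors. Skeletal muscle genes, of which 4 of 5 were named in the tables, summed to 2.31 to 211. The part of these cells in the differences was not tested.

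For each of the 9 genes, the 3 genes with the most similar profile over the 9 tumors were found by Pearson's r of log2(FPKM + 1), among 10786 genes. All points share the tumors, PBS tumor 1 at the low end among them, and without it the r of these pairs was 0.871 to 0.997. C8a was most like Apom and Mbl2 (r = 0.999 and 0.998), which encode an apolipoprotein and a mannose-binding lectin, and 1300017J02Rik. Hc was most like Apoc1 (r = 0.999), the row of Cyp2d9 and F12, and C9 was most like C4bp (r = 0.996), Vtn and Kng1. C8b was most like the row of Apof and Stat2 (r = 0.996), Tfr2 and Hpn, and C6 was most like F10 (r = 0.994), Psen2 and Stra6l. C3 was most like Mug-ps1 (r = 0.993), Mug1 and Hp, and Cfb was most like Fgb (r = 0.992), F12 and Fbp1. Clu was most like Pank1 (r = 0.975), Eva1a and Amacr, and C4b was most like Dusp2 (r = 0.929), Rab19 and Cd3d. Of all genes compared, 2 had an r over 0.9 with C4b, where 222 to 438 had one with each of the other 8.

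The rest of the complement system was described with a list of 48 further genes, 41 of which could be measured. C2 and C4a were left out because they share rows with Cfb and C4b, and the others because their estimate failed in a tumor. In responsive against nonresponsive tumors 37 genes were tested and 21 had a higher mean, with a median difference of 0.16, which was 0.03 to 0.30 without single tumors. Of these, 4 were higher and 2 lower at an unadjusted p under 0.05 by limma, where 5.49% of all genes passed in either direction. In responsive against PBS tumors 36 were tested and 30 had a higher mean, with a median of 0.93, and 15 were higher and 1 lower at an unadjusted p under 0.05, where 17.2% of all genes passed. In nonresponsive against PBS tumors 35 were tested, 32 had a higher mean, with a median of 0.94, and 6 were higher and 0 lower, where 3.22% of all genes passed. These counts depended on single tumors. The 6 genes against nonresponsive tumors became 13 without nonresponsive tumor 1 and 2 without nonresponsive tumor 2 or responsive tumor 3. The 16 genes against PBS tumors became 5, 9 and 4 without responsive tumors 1, 2 and 3, and the 6 genes of nonresponsive against PBS tumors became 1 without PBS tumor 1 or nonresponsive tumor 2 and 3 without nonresponsive tumor 1. The medians from PBS tumors, 0.93 and 0.94, were 0.58 and 0.46 without PBS tumor 1. Cfi against PBS tumors was the only one of these genes that kept an unadjusted p under 0.05 under all alternatives. Cd46 kept it under all except joined loci, where it was lost.

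After Benjamini-Hochberg adjustment over all genes, 1 gene passed 0.05, Cd46, in responsive against nonresponsive and in responsive against PBS tumors, and none passed in nonresponsive against PBS, where the smallest adjusted p was 0.718. Over all genes 0.116%, 0.231% and 0.0797% passed in the 3 comparisons. Cd46, a regulator on the cell surface, was listed at 0 in all responsive tumors, but in the other 6 tumors its row was joined with that of its neighbour Cr1l. With Cd46, Cr1l and Cr2, of which the last shared the row in nonresponsive tumor 3, joined in all tumors, the difference was 0.27 and 0.26 (unadjusted p = 0.223 and 0.207 by limma), so the call was lost. With all genes that share a row in any tumor so joined, 32 and 31 loci were tested against nonresponsive and PBS tumors, 4 and 15 were higher and 1 and 0 lower at an unadjusted p under 0.05, and 0 passed after adjustment.

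By role, the other terminal genes were C8g and C7. C8g had an FPKM of 12.5 and 21.6 in PBS tumors 2 and 3 and was listed at 0 in PBS tumor 1, with 53.2, 22.0 and 15.6 for nonresponsive and 98.8, 44.4 and 58.1 for responsive tumors. It was 3.26 (SE 1.21) higher in responsive than PBS tumors on the log2(FPKM + 1) scale (unadjusted p = 0.0375, adjusted p = 0.284 by limma) and 1.23 (SE 0.53) higher than in nonresponsive tumors (unadjusted p = 0.0581, adjusted p = 0.885). Without PBS tumor 1 the difference from PBS tumors was 1.89, and under 6 of 15 alternatives its unadjusted p was over 0.05. C7 reached an FPKM of at most 1.32 in the 9 tumors and was not tested. Nonresponsive tumor 1 and responsive tumor 1 were the highest of their groups for C8a, C8b and C8g alike.

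Soluble regulators of complement had the largest median difference of the role groups between responsive and nonresponsive tumors among those with more than 2 genes tested. Their medians were 1.10 for responsive against nonresponsive and 2.03 for responsive against PBS tumors over 6 genes, the second being 1.41 without PBS tumor 1. Cfi, the protease that degrades C3b and C4b, had an FPKM of 20.1, 48.4 and 49.3 for PBS, 87.3, 39.4 and 32.8 for nonresponsive, and 136, 89.9 and 115 for responsive tumors. All responsive values were above the other 6, with a difference of 1.19 (SE 0.41, unadjusted p = 0.0277, adjusted p = 0.885 by limma) from nonresponsive tumors. Cpn1 and Cpn2, the subunits of carboxypeptidase N, which trims the anaphylatoxins, were 0.84 (SE 0.26) and 1.23 (SE 0.44) higher (unadjusted p = 0.0184 and 0.0328, adjusted p = 0.885 for both). The unadjusted p was over 0.05 under 5 of 15 alternatives for Cfi, 7 of 15 for Cpn2 and 1 of 15 for Cpn1. A fit without moderated variances was among these for Cfi and Cpn2, as was leaving out nonresponsive tumor 2 or 3 or responsive tumor 1 or 3. For Cpn1 it was leaving out responsive tumor 2. Cpn1 did not follow the order of the 9 genes, since it was at 39.6 to 43.5 for PBS, 22.8 to 39.4 for nonresponsive, and 52.1 to 66.2 for responsive tumors. C4bp, the C4b-binding protein, and Vtn, vitronectin, which blocks the terminal complex as clusterin does, were 1.17 and 1.04 higher than in nonresponsive tumors (unadjusted p = 0.0813 and 0.0589). Against PBS tumors they were 2.83 and 2.69 higher (unadjusted p = 0.0411 and 0.0280, adjusted p = 0.287 and 0.282). These differences were 1.65 and 1.67 without PBS tumor 1, and the unadjusted p was over 0.05 under 6 of 15 alternatives for C4bp and 4 of 15 for Vtn. Serping1, the C1 inhibitor, was -0.06 from nonresponsive tumors (unadjusted p = 0.847).

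Of the lectin route, 6 of 7 genes tested were higher at an unadjusted p under 0.05 in responsive than PBS tumors and 0 of 7 in responsive than nonresponsive tumors, with medians of 1.38 and 0.95, where 17.2% and 5.49% of all genes passed in either direction. The 6 genes became 1, 3 and 0 without responsive tumors 1, 2 and 3 and 4 without PBS tumor 1, with a median of 0.84. The median from nonresponsive tumors was 0.39 without nonresponsive tumor 3. Mbl2 had an FPKM of 1.23, 17.0 and 32.5 for PBS, 72.8, 22.3 and 20.0 for nonresponsive, and 125, 50.2 and 93.4 for responsive tumors, the same placing of tumors as for C8a. It was 2.94 (SE 1.05) higher than in PBS tumors (unadjusted p = 0.0330, adjusted p = 0.282 by limma). Mbl1 was 2.71 (SE 0.90) higher than in PBS tumors (unadjusted p = 0.0255, adjusted p = 0.281). They differed by 1.79 and 1.71 without PBS tumor 1, and under 4 of 15 alternatives each had an unadjusted p over 0.05. Colec11 was joined with Rps7, a ribosomal protein gene, in some tumors and ranged from 7.98 to 3985, so its value is uncertain.

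Classical route genes, of which those of the C1q chains are known as macrophage products, had medians of 0.07 for responsive against nonresponsive and 0.77 for responsive against PBS tumors over 8 genes, the second being 0.51 without PBS tumor 1. C1qa had an FPKM of 228 to 375 for PBS, 402 to 518 for nonresponsive, and 413 to 523 for responsive tumors, and differed by 0.05 (SE 0.25) between responsive and nonresponsive tumors (unadjusted p = 0.851 by limma). C1qb and C1qc shared a row in some tumors, C1s1 and C1s2 as well as C1ra and C1rb likewise. Their single values, and the medians of the classical route that include them, are therefore uncertain. C1rl, a C1r-like protease, was higher in responsive than nonresponsive tumors by 0.62 (SE 0.19, unadjusted p = 0.0164, adjusted p = 0.885), and all its responsive values were above the other 6. The call was lost under 4 of 15 alternatives.

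Receptors of complement fragments are carried mostly by myeloid cells, and Cr2 by B cells. Their median in responsive against nonresponsive tumors was -0.82 over 8 genes, 1 of which had a higher mean. Without responsive tumor 2 it was -0.46. Rows joined with another complement gene entered C5ar1, C5ar2 and Cr2 in a nonresponsive tumor. The 83.1 of nonresponsive tumor 2 was counted for both C5ar1 and C5ar2. Itgam and Itgax shared rows with genes outside this list. C5ar2 was at 4.27, 83.1 and 1.44 FPKM in nonresponsive tumors, the 83.1 being of the row joined with C5ar1, and at 3.20, 1.15 and 1.92 in responsive tumors. Cr2 was at 0.916, 0.451 and 27.2 in nonresponsive tumors, the 27.2 being of the row joined with Cd46 and Cr1l, and at 3.57, 1.02 and 3.40 in responsive tumors. The median and the count of higher means are uncertain to that extent. Macrophage and neutrophil markers lay lower too, with medians of -0.42 over 8 genes and -0.29 over 4, none of which had a higher mean, and their part in the result was not tested. This rested on single tumors. Without responsive tumor 2 the medians were -0.10 and 0.44, with 4 of 8 and 3 of 4 genes higher in mean. Without nonresponsive tumor 1 they were -0.22 and 0.30, with 2 of 8 and 4 of 4 higher. C5ar1, the receptor of C5a, was at 83.3, 83.1 and 27.4 FPKM in the nonresponsive group against 31.1, 9.02 and 22.8 in the responsive group, a difference of -1.57 (SE 0.62, unadjusted p = 0.0442, adjusted p = 0.885 by limma). The unadjusted p was over 0.05 under 7 of 14 alternatives, which were upper-quartile scaling, the replicate block, a fit without moderated variances and leaving out nonresponsive tumor 1 or 2 or responsive tumor 2 or 3. Its row was shared with C5ar2 in PBS tumor 2 and nonresponsive tumor 2. C3ar1, the receptor of C3a, was at 35.2, 47.0 and 16.6 FPKM against 23.4, 7.81 and 13.6, a difference of -1.09 (SE 0.52, unadjusted p = 0.0810). Membrane regulators had medians of 0.19 and 1.26 in responsive against nonresponsive and PBS tumors over 5 genes, the first being -0.04 without nonresponsive tumor 3 and -0.02 without responsive tumor 1. The 2 genes of the alternative route other than Cfb, Cfd and Cfp, differed by -2.34 and -0.38 from nonresponsive tumors without passing the test (unadjusted p = 0.132 and 0.443). Cfd was at 0, 42.0 and 6.97 FPKM in nonresponsive and 1.32, 0.146 and 0 in responsive tumors. The median of the 2 genes, -1.36, was -0.63 without nonresponsive tumor 2.

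**Figure D4:**
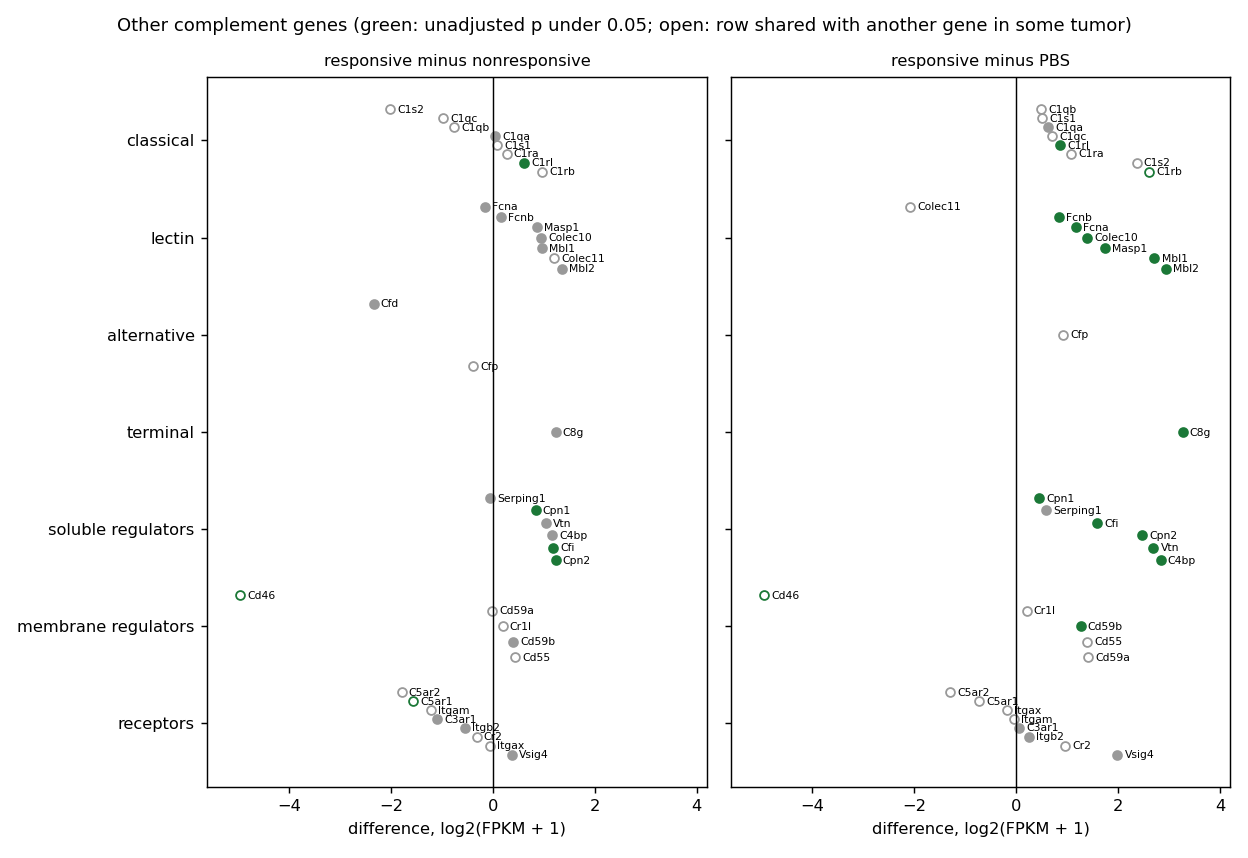
Differences in log2(FPKM + 1) of the other complement genes by role, for responsive minus nonresponsive (left) and responsive minus PBS tumors (right), with green for an unadjusted p under 0.05 by limma and open circles for genes whose row was shared with another gene in some tumor. Soluble regulators and lectin route genes lie mostly right of 0 in both panels, and receptors lie left of 0 in the left panel except Vsig4. Of these receptors, C5ar1, C5ar2 and Cr2 each include a row joined with another complement gene in a nonresponsive tumor.

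Genes of other proteins that the liver secretes were set beside the complement genes. Of 15 coagulation genes tested, 14 had a higher mean in responsive than nonresponsive tumors, with a median of 1.19, and 6 were higher at an unadjusted p under 0.05 by limma, where 5.49% of all genes passed, and 0 after adjustment. The 6 became 1 to 12 without single tumors. Against PBS tumors their median was 2.56, with 15 of 15 higher in mean and 11 at an unadjusted p under 0.05, where 17.2% of all genes passed. The 11 became 2 without responsive tumor 1 or 3, and without PBS tumor 1 the median was 1.66. Of 14 acute phase genes, 14 had a higher mean in responsive than nonresponsive tumors, with a median of 0.53, and 2 were higher at an unadjusted p under 0.05. The 2 became 0 to 3 without single tumors, and the median was 0.10 without nonresponsive tumor 3 and 0.25 without responsive tumor 1. Their median against PBS tumors was 2.27, with 5 of 14 at an unadjusted p under 0.05. The 5 became 0 without responsive tumor 1 or 3, and without PBS tumor 1 the median was 1.12. Joined rows limit these counts and medians. Orm1 and Orm2 had the same values in all nonresponsive and responsive tumors, so their row was counted for both, each at 0.53. Saa1 and Saa3, Fga and Fgg, and F7 and F10 shared a row in some tumors as well. The medians of the 9 genes were 0.88 and 2.17, the second being 1.35 without PBS tumor 1.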

How the data were processed

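Bulk RNA of 9 tumors was sequenced from TruSeq libraries by the study. The authors deposited 1 Cufflinks table per tumor with the FPKM of each row and its 95% interval. The submitters' processing notes name Bowtie2 2.2.4, TopHat2 2.1.1 and build mm8. Row positions overlapped the GRCm38.p6 gene for 11.9% of 34928 genes compared, so no position from the tables is given. The authors' Cuffdiff table holds fold changes and p-values and was not used.

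Rows naming a gene were summed per tumor and compared on log2(FPKM + 1), with a pseudocount of 1. Members, gene lists and tests were chosen with earlier results of these data known. Genes that reached an FPKM of 1 in 3 or more of the 6 tumors compared were fitted with limma 3.58.1 in R 4.3.3 (lmFit, eBayes with trend), two-sided, with Benjamini-Hochberg adjustment. The fit was tested on simulated data. With 3 tumors against 3, an exact permutation test cannot reach 0.05, so none was run. Python 3.11.15, with numpy 2.4.6, pandas 2.3.3 and matplotlib 3.10.9, made the tables and plots. Named genes were the 9 members, the 2 most abundant genes of each complement role, those with an adjusted p under 0.05, up to 5 per comparison with an unadjusted p under 0.05, the most abundant hepatocyte genes, and the 3 genes most like each member. C1rl, C1qa and others named beyond that rule were chosen after their values were seen. Alternatives were a pseudocount of 0.1, no filter or one at 5, 2 scalings, joined loci, all 9 tumors in 1 fit, a replicate block, Student's test and leaving out each tumor.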

Additional observations from a re-analysis of the deposited data

How the results depend on the processing

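The 9 genes kept the direction of their difference under the other pseudocount, both scalings and joined loci in all 3 comparisons, and without any 1 tumor in responsive against nonresponsive and responsive against PBS tumors. In nonresponsive against PBS tumors 3 of 90 values turned: leaving out single tumors, Clu ranged from -0.25 to 0.34 and C4b from -0.06 to 0.30. The number of the 9 genes higher without overlap ranged from 2 to 8 in responsive against nonresponsive and from 0 to 6 in nonresponsive against PBS tumors. Leaving out a tumor can only keep or raise this number, and no share over all genes is given beside it.

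Of the other complement genes, those with an unadjusted p under 0.05 by limma numbered 6, 16 and 6 in responsive against nonresponsive, responsive against PBS and nonresponsive against PBS tumors. Student's test gave 3, 5 and 1, and leaving out single tumors gave 2 to 13, 4 to 16 and 1 to 9. Over all genes, 760, 2385 and 445 had an unadjusted p under 0.05, and leaving out single tumors gave 323 to 1447, 1065 to 3951 and 228 to 1881. In the last comparison 812 passed without a filter and 269 with one at an FPKM of 5. Of these genes 73.8%, 49.2% and 47.0% were higher in the first group, against 35.1%, 29.7% and 58.2% with tumors scaled to the same sum over named rows, which moved the median difference of all genes from -0.07 to -0.24, from -0.11 to -0.24 and from -0.06 to -0.01. The cause was not tested.

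The replicate numbers were not taken as pairing the tumors. Correlations of deviations between same-numbered tumors were 0.475, 0.045 and -0.0497 in responsive against nonresponsive tumors. They were -0.292, -0.324 and 0.134 in responsive against PBS, and -0.394, -0.0551 and -0.171 in nonresponsive against PBS tumors. Between differently numbered tumors they were -0.467 to 0.461, -0.24 to 0.438 and -0.263 to 0.338 in the same order of comparisons. With 3 tumors per group these values cannot exclude a pairing. With the replicate number as a block, 11, 9 and 2 other complement genes and 937, 948 and 237 of all genes passed.

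Single genes that turned were mostly near 0. With loci joined, Cd46 was at 0.27, 0.26 and -0.01 and Cr1l at -0.01 in nonresponsive against PBS tumors, where both ranged from -0.08 to 0.11 without single tumors. In responsive against nonresponsive tumors Cd59a was at 0.02 with upper-quartile scaling and Cr1l at -0.01 with scaling to named rows, and without single tumors Cd59a ranged from -0.61 to 0.46, Colec11 from -0.69 to 3.31, Fcna from -0.45 to 0.15 and Serping1 from -0.22 to 0.08. In responsive against PBS tumors C3ar1 was at -0.08 with scaling to named rows, and without single tumors it ranged from -0.30 to 0.43, Itgam from -0.52 to 0.44 and Itgb2 from -0.25 to 0.59. Cfi ranged from -0.02 to 0.67 in nonresponsive against PBS tumors. Sequencing depth is unknown, which limits what can be said of genes near an FPKM of 1.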
